A study of Mus musculus with 12 samples.

Results

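The 9 genes described here encode 2 vascular endothelial growth factors (Vegfa, Vegfb), their receptors and co-receptor (Kdr, Flt1, Nrp1), the Tie receptors (Tek, Tie1) and 2 junction proteins that identify endothelial cells (Cdh5, Pecam1). They were chosen by gene symbol, with earlier results of these data known, from the 22180 genes that the array represents by at least 1 row with a single symbol. Each of the 9 had exactly 1 such row, and all 9 passed the filter on low values described below. Expression was measured on 12 whole-transcript arrays of the plantaris, a fast-fibred calf muscle, 3 arrays from each of 4 groups of mice. These were REDD1 knockout mice whose muscle was taken 1 hour after they finished one session of aerobic exercise, REDD1 knockout mice left sedentary, wild-type mice sampled in the same way after the same exercise, and wild-type sedentary mice. All were males aged 12 weeks from which food had been withheld for 3 hours. REDD1, the product of Ddit4, inhibits the growth kinase complex mTORC1. The labels give each array as the muscle of a mouse and say nothing of pooling, litter or batch, so p-values measure only the spread between these arrays. They name neither the knockout allele nor the background strain, nor the tissues that lack REDD1.

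The 10 skeletal muscle fibre markers lay between 11.7 and 13.6 on the log2 scale on every array, among the highest values of a table that runs from 0.36 to 13.9. Ddit4 was at 5.72 to 6.77 in knockout exercised and 5.08 to 5.44 in knockout sedentary arrays, against 8.40 to 9.05 in wild-type exercised and 5.83 to 6.13 in wild-type sedentary arrays. In each condition the knockout arrays lay below the wild-type arrays. A pair of arrays stood apart. Knockout sedentary replicate 3 had fibroblast and matrix markers 1.14 above their 12-array mean, against 0.15 and -0.22 on the other knockout sedentary arrays. Wild-type exercised replicate 1 had immediate-early genes 1.04 above the mean, against 0.00 and 0.21 on the other wild-type exercised arrays. Where leaving out one of them changes a call or moves a value of the 9 genes by much, the value without it is given too, as are the marker counts without them.

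As background, VEGF-A is released by muscle fibres and other cells and acts on endothelial cells mainly through KDR (VEGFR2), the receptor that carries most of its signal for survival, permeability and sprouting. FLT1 (VEGFR1) binds VEGF-A more tightly but signals weakly and can act as a decoy, VEGF-B binds FLT1 and not KDR, and NRP1 presents VEGF-A to KDR. TEK (TIE2) is the receptor of the angiopoietins, of which ANGPT1 keeps vessels quiescent. TIE1 is the partner of TEK without a well-defined ligand of its own. CDH5 (VE-cadherin) forms the adherens junctions between endothelial cells, and PECAM1 (CD31) is an adhesion protein at the same contacts, also carried by platelets and leukocytes.

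The promoters of Kdr and Flt1 are shown because Kdr fell after exercise while Flt1, which binds the same ligand, had a positive value. Each run holds 250 bases before and 50 bases from the annotated start on, read 5′ to 3′ along the gene, from RefSeq (GRCm38.p6). The Kdr window is chr5:75978406-75978705 and the Flt1 window chr5:147725962-147726261, both on the minus strand. Capitals mark matches, on either strand, to the letters GGGCGG (a GC box) and CCGGAA or AGGAAG (cores bound by ETS factors). They also mark ACGTG (a form of the core of the hypoxia response element) and TGACGT (a cAMP response element site). Other forms of the hypoxia core were not searched.
Kdr: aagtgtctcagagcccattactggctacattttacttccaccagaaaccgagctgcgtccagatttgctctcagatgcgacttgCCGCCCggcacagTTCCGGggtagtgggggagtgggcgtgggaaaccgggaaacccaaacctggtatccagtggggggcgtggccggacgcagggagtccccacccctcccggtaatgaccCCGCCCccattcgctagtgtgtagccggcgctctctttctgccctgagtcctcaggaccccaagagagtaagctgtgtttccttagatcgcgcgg
Flt1: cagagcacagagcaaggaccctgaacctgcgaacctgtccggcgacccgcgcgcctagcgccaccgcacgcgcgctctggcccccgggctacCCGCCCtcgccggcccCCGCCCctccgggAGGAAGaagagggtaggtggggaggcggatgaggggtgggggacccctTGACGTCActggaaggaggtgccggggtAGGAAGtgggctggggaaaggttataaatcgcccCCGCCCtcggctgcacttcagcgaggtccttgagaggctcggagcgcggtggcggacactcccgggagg
The Kdr window held GGGCGG at 2 places, from -166 to -161 and from -45 to -40 relative to the start, and CCGGAA at 1, from -153 to -148. The Flt1 window held GGGCGG at 3 places, AGGAAG at 2, from -129 to -124 and from -53 to -48, and TGACGT on both strands in overlapping matches between -81 and -74. Of all 32851 promoter windows of this length, 35.7% held GGGCGG, 14.9% CCGGAA, 35.4% AGGAAG, 19.6% ACGTG and 7.51% TGACGT. A promoter entry was found for 7 of the 9 genes: Cdh5 and Pecam1 are named only. Among the 7, GGGCGG was in 5, AGGAAG in 3, CCGGAA in 1 (Kdr), TGACGT in 1 (Flt1) and ACGTG in 0. G and C made up 60.7% of the Kdr and 70.7% of the Flt1 window. These matches describe the letters and no site of binding.

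Kdr, the main signalling receptor of VEGF-A, fell 1 hour after exercise in both genotypes. Its log2 levels were 6.87, 7.20 and 6.84 in knockout exercised arrays, against 7.80, 7.66 and 7.98 in knockout sedentary arrays. In wild type they were 7.25, 7.51 and 7.27 in exercised arrays, against 8.18, 8.07 and 8.07 in sedentary arrays. All 6 exercised arrays lay below all 6 sedentary arrays, whatever their genotype. Kdr was 1.80-fold lower after exercise in the knockout (log2 fold change -0.84, SE 0.12, limma adjusted p = 0.00492, n = 3 per group) and 1.70-fold lower in wild type (-0.76, SE 0.12, limma adjusted p = 0.00582, n = 3 per group). Averaged over genotypes the fall was 1.75-fold (-0.80, SE 0.09, 95% interval -0.99 to -0.62, limma adjusted p = 9.27e-05), the value of rank 18 by p among 13747 genes tested. The 12 fits that each left out 1 array all called Kdr, in each genotype and in the average. Without knockout sedentary replicate 3 the fall in the knockout was -0.76, and without wild-type exercised replicate 1 the fall in wild type was -0.71. The same fit without limma's moderation of the variances called Kdr in neither genotype (adjusted p = 0.120 in the knockout and 0.103 in wild type) but did so in the average (adjusted p = 0.0150). In bulk muscle, fewer endothelial cells and less RNA per endothelial cell cannot be told apart.

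The size of the fall did not detectably depend on REDD1. The difference of exercise effects, knockout minus wild type, was -0.08 for Kdr (SE 0.17, limma adjusted p = 0.997), with a 95% interval from -0.45 to 0.28. The order of the group means, from low to high, was knockout exercised (6.97 ± 0.20), wild-type exercised (7.34 ± 0.15), knockout sedentary (7.81 ± 0.16) and wild-type sedentary (8.10 ± 0.06; SD, n = 3 each). Neighbouring groups in this order did not overlap. The knockout lay below wild type in both conditions, by 0.37 in exercised (SE 0.12, limma adjusted p = 0.490) and 0.29 in sedentary muscle (SE 0.12, limma adjusted p = 0.575). Neither value passed, nor did their average of -0.33 (SE 0.09, limma adjusted p = 0.120).

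**Figure D1:**
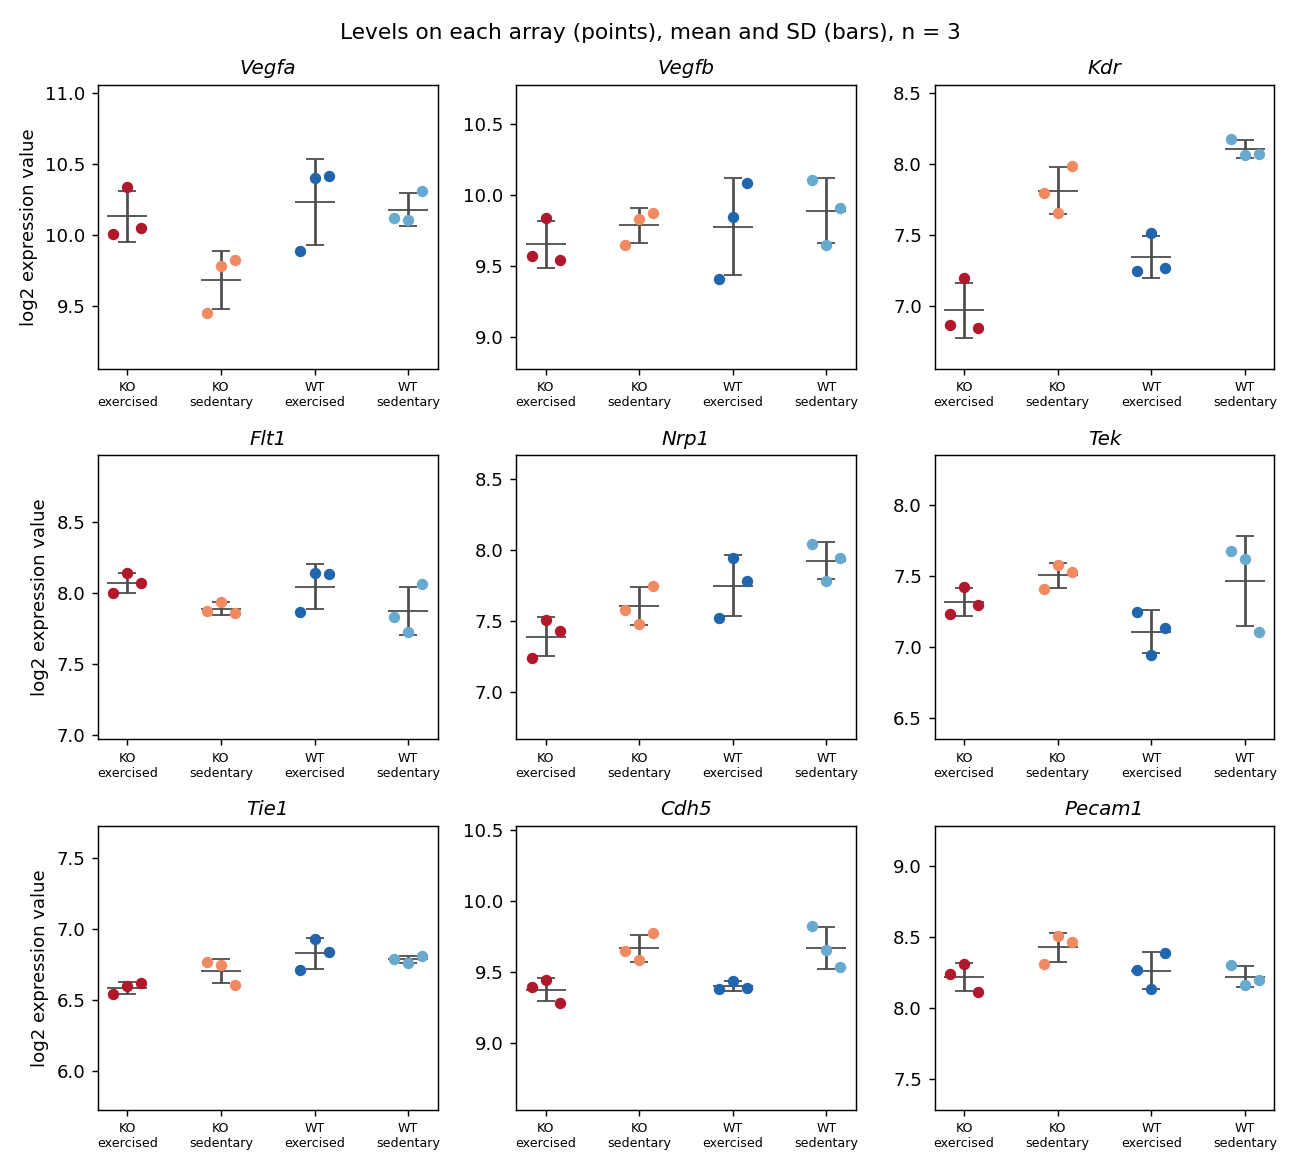
Log2 expression value (vertical axis, each panel spanning 2 log2 units) of the 9 genes on each array (points) in knockout exercised, knockout sedentary, wild-type exercised and wild-type sedentary muscle, with the mean and SD of 3 arrays (bars). For Kdr, the 6 exercised arrays sit between 6.84 and 7.51 and the 6 sedentary arrays between 7.66 and 8.18.

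Flt1, the tight-binding receptor with weak signalling, had positive exercise values where Kdr fell. Its levels were 8.0, 8.15 and 8.07 in knockout exercised arrays, against 7.88, 7.94 and 7.86 in knockout sedentary arrays. In wild type they were 7.87, 8.14 and 8.14 in exercised arrays, against 7.83, 7.73 and 8.06 in sedentary arrays. The groups did not overlap in the knockout and overlapped in wild type. The log2 fold changes of 0.18 in the knockout and 0.17 in wild type (SE 0.11 each) did not pass (limma adjusted p = 0.706 and 0.759), nor did their average of 0.18 (95% interval 0.01 to 0.34, limma adjusted p = 0.391). The level of Kdr minus that of Flt1, centred on its 12-array mean, was -0.69 ± 0.14 in knockout exercised and 0.34 ± 0.20 in knockout sedentary arrays. It was -0.29 ± 0.14 in wild-type exercised and 0.64 ± 0.19 in wild-type sedentary arrays (SD, n = 3 each), without overlap between conditions in either genotype. Between genotypes Flt1 hardly differed, by 0.02 on average (95% interval -0.14 to 0.18).

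Nrp1, the co-receptor that presents VEGF-A to Kdr, was lower in the knockout than in wild type in both conditions, without passing the test. Its levels were 7.24, 7.50 and 7.43 in knockout exercised arrays, against 7.52, 7.94 and 7.78 in wild-type exercised arrays. In sedentary muscle they were 7.58, 7.48 and 7.75 in the knockout, against 8.04, 7.78 and 7.95 in wild type. The genotypes did not overlap within either condition, though the margins were as narrow as 7.50 against 7.52. The average difference was -0.34 (SE 0.09, 95% interval -0.53 to -0.15, limma adjusted p = 0.120). Leaving out replicate 1 of wild-type exercised muscle, where immediate-early genes were high, it was -0.40 and passed (limma adjusted p = 0.0322). That array held the lowest wild-type level of Nrp1 (7.52), so leaving it out must widen the difference. Of the 12 fits with 1 array left out, that fit also had the most genotype calls over all genes. The exercise values of Nrp1 were -0.22 in the knockout and -0.18 in wild type (SE 0.12 each, limma adjusted p = 0.680 and 0.802). They were -0.14 in the knockout without knockout sedentary replicate 3, and -0.061 in wild type without wild-type exercised replicate 1.

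Among the ligands, Vegfa was lowest in knockout sedentary muscle. Its levels were 10.01, 10.34 and 10.05 in knockout exercised arrays, against 9.45, 9.78 and 9.82 in knockout sedentary arrays. In wild type they were 9.88, 10.40 and 10.41 in exercised arrays, against 10.12, 10.10 and 10.31 in sedentary arrays. The 3 knockout sedentary arrays lay below every other array. Vegfa was 0.45 higher after exercise in the knockout (SE 0.14) and 0.06 higher in wild type (SE 0.14), and neither passed (limma adjusted p = 0.299 and 0.966). The difference of these effects was 0.39 (95% interval -0.04 to 0.82, limma adjusted p = 0.997). In sedentary muscle the knockout was 0.49 below wild type (SE 0.14, limma adjusted p = 0.341), and in exercised muscle 0.10 below (SE 0.14, limma adjusted p = 0.988). The genotype average of -0.30 (SE 0.10, limma adjusted p = 0.314) passed without wild-type exercised replicate 1 (-0.38, limma adjusted p = 0.0448). That array held the lowest wild-type level of Vegfa (9.88), so leaving it out must widen this difference too. Without that array Vegfa was also 0.23 higher after exercise in wild type, the difference of effects was 0.22, and the knockout lay 0.27 below wild type in exercised muscle, none of which passed. Vegfb, the ligand of Flt1 that is abundant in muscle, overlapped in all 4 pairs of groups. Its log2 levels ran from 9.54 to 9.84 in knockout exercised, 9.65 to 9.87 in knockout sedentary, 9.41 to 10.1 in wild-type exercised and 9.65 to 10.1 in wild-type sedentary arrays. Its exercise values were -0.13 in the knockout and -0.11 in wild type (SE 0.15 each). Without wild-type exercised replicate 1, the array at 9.41, the wild-type exercise value of Vegfb turned positive. In exercised muscle the knockout then lay further below wild type.

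**Figure D2:**
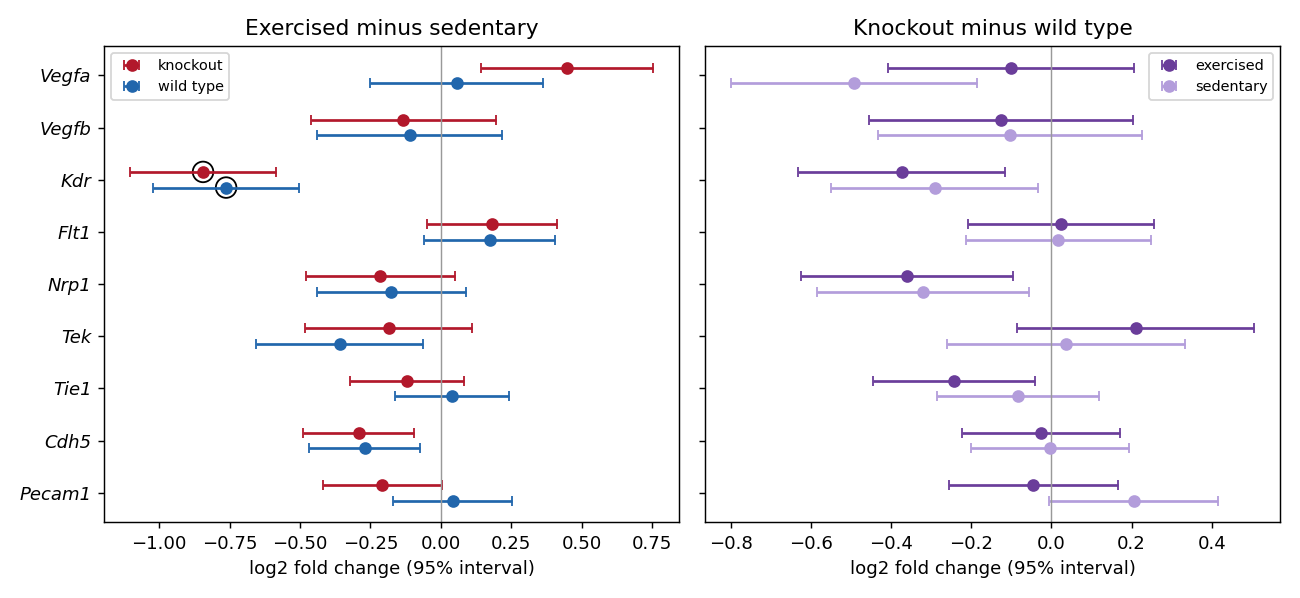
Log2 fold changes of the 9 genes with 95% intervals (horizontal axis), for exercised minus sedentary muscle in knockout and wild type (left) and for knockout minus wild-type muscle in exercised and sedentary mice (right). Circles mark an adjusted p under 0.05: Kdr, at -0.84 and -0.76, carries both circles, and no genotype difference passes.

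The endothelial junction genes moved by smaller amounts than Kdr. Cdh5, which encodes VE-cadherin, was at 9.39, 9.44 and 9.28 in knockout exercised arrays, against 9.64, 9.58 and 9.77 in knockout sedentary arrays. In wild type it was at 9.38, 9.44 and 9.38 in exercised arrays, against 9.82, 9.65 and 9.53 in sedentary arrays. As for Kdr, all 6 exercised arrays lay below all 6 sedentary arrays. Cdh5 fell by 0.28 averaged over genotypes (SE 0.07, limma adjusted p = 0.0448), just inside the threshold. It did not pass within the knockout (-0.29, SE 0.09, limma adjusted p = 0.288) or wild type (-0.27, SE 0.09, limma adjusted p = 0.360). The averaged call was lost when any array other than wild-type sedentary replicate 3 was left out, with values between -0.32 and -0.24 in the 12 fits and adjusted p up to 0.125. Cdh5 did not differ by genotype beyond its spread (-0.01, 95% interval -0.15 to 0.13). Pecam1, the CD31 gene, was at 8.24, 8.31 and 8.11 in knockout exercised arrays, against 8.31, 8.51 and 8.46 in knockout sedentary arrays. In wild type its exercised arrays, at 8.27, 8.13 and 8.39, overlapped the sedentary arrays at 8.30, 8.16 and 8.20. Its exercise values were -0.21 in the knockout and 0.04 in wild type (SE 0.10 each, limma adjusted p = 0.570 and 0.959).

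Of the Tie receptors, Tek ran from 7.23 to 7.42 in knockout exercised and 7.41 to 7.58 in knockout sedentary arrays. In wild type it ran from 6.94 to 7.25 in exercised and 7.10 to 7.68 in sedentary arrays, where replicate 3, at 7.10, lay far below the other 2 arrays (7.68 and 7.62). Its averaged exercise value was -0.27 (SE 0.10, limma adjusted p = 0.267). Without that array, singled out by its own Tek level, the value was -0.36 and passed (limma adjusted p = 0.0361). Leaving out the lowest sedentary level must enlarge a fall, so this pass adds no support to it. Tie1 was at 6.54, 6.60 and 6.62 in knockout exercised arrays, against 6.71, 6.93 and 6.84 in wild-type exercised arrays, a difference of -0.24 (SE 0.09) that did not pass (limma adjusted p = 0.649). Its averaged exercise value was -0.04 (95% interval -0.18 to 0.10), the smallest of the 9 genes.

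In counts, exercise lowered 1 of 9 genes (Kdr) and raised 0 in the knockout, where 0.276% of all genes tested were called and 0.0364% were called lower. In wild type it also lowered 1 (Kdr) and raised 0, where 0.567% were called and 0.0946% called lower. Averaged over genotypes it lowered 2 of 9 (Kdr and Cdh5), with 1.60% of all genes called and 0.509% called lower. The calls over all genes were 150 higher and 70 lower, or 149 higher and 41 lower with each array centred on its median. An unadjusted p under 0.05 was reached by 3 of 9 genes in the knockout (8.93% of all genes), 3 in wild type (8.21%) and 6 in the average (11.2%). Kdr and Cdh5 were also the 2 of 9 whose exercised arrays all lay below all sedentary arrays, a pattern of 0.538% of all genes. Within the knockout, exercised arrays lay below sedentary arrays without overlap for 3 of 9 genes (Kdr, Cdh5 and Pecam1, 6.77% of all genes) and above them for 2 (Flt1 and Vegfa, 7.13%). In wild type they lay below for 2 (Kdr and Cdh5, 7.14%). The median exercise value over the 9 genes was -0.19 in the knockout and -0.11 in wild type, against -0.0023 and -0.02 over all genes tested. Without knockout sedentary replicate 3 the knockout median was -0.17. Without wild-type exercised replicate 1 the wild-type median turned positive, at 0.04, with 4 of 9 values negative in place of 5.

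No member was called for the difference of exercise effects, where 0% of all genes were called by limma. At an unadjusted p under 0.05, that difference held 0 of 9 members and 620 of 13747 genes (4.51%). Nor was a member called between genotypes, where 0.175% of all genes were called in exercised muscle, 0.138% in sedentary muscle and 0.546% in the average. An unadjusted p under 0.05 was reached by 3 of 9 members in exercised muscle (6.58% of all genes), 3 in sedentary muscle (7.70%) and 4 in the average (9.36%). Without wild-type exercised replicate 1 the count in exercised muscle was 5 of 9, with 0 called. The share of all genes in that fit is not given here. The median over the members in exercised muscle was then -0.27, against -0.10 with all arrays. In exercised muscle the calls over all genes were 13 higher and 11 lower, or 11 higher and 15 lower after quantile normalization. Without moderation the fit also called 0 members in each of these comparisons. Knockout arrays lay below wild-type arrays without overlap for 3 of 9 genes in exercised muscle (Kdr, Nrp1 and Tie1, 5.67% of all genes) and for 3 in sedentary muscle (Vegfa, Kdr and Nrp1, 7.73%), and above them for 1 in sedentary muscle (Pecam1, 5.35%). Kdr and Nrp1 were lower in this way in both conditions, 2 of 9 genes beside 0.880% of all genes.

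Other endothelial genes showed how far the fall of Kdr was shared. Averaged over genotypes, the median of 27 tested was -0.05, against -0.01 over all genes. An unadjusted p under 0.05 was reached by 10 (11.2% of all genes). Of the 27, 3 were called lower (0.509% of all genes) and 0 higher (1.09%). They were Erg, an ETS factor that maintains endothelial identity and is known to activate Cdh5 (-0.41, SE 0.08, limma adjusted p = 0.0110), Clec14a, an endothelial surface lectin (-0.54, SE 0.12, limma adjusted p = 0.0247), and Myct1, an endothelial membrane protein (-0.64, SE 0.15, limma adjusted p = 0.0486). Erg was at 5.56, 5.82 and 5.68 in knockout exercised arrays, against 6.11, 5.91 and 6.10 in knockout sedentary arrays. In wild type it was at 5.61, 5.76 and 5.63 in exercised arrays, against 6.05, 6.23 and 6.13 in sedentary arrays. The exercised arrays again all lay below the sedentary arrays. Erg passed with any 1 array left out, Clec14a in 5 and Myct1 in 2 of these 12 fits. Within a genotype none of the 27 passed: Erg was at -0.35 and the platelet adhesion gene Vwf at -0.46 in the knockout, Erg at -0.47 and Clec14a at -0.68 in wild type. The list also held positive values, up to 0.26 in the knockout and 0.41 in wild type. In wild type 6 of 27 were lower without overlap (7.14% of all genes) and 5 higher (5.75%). In the knockout 6 were lower in this way (6.77%) and 0 higher (7.13%). Clec14a passed in wild type when knockout sedentary replicate 3 was left out (limma adjusted p = 0.0494). Of the 27 exercise values, 20 were negative in the knockout, where 50.6% of all genes were, and 16 in wild type, where 55.0% were, so that the wild-type share was near that of all genes. An unadjusted p under 0.05 was reached by 8 in the knockout (8.93% of all genes) and 7 in wild type (8.21%). Without knockout sedentary replicate 3 the knockout counts were 20 and 3. Without wild-type exercised replicate 1, 14 of these 27 genes were negative in wild type, with a median of -0.0068. Their mean level, relative to the 12-array mean, ran from -0.15 to 0.03 in knockout exercised against 0.02 to 0.09 in knockout sedentary arrays, and from -0.07 to 0.02 in wild-type exercised against -0.01 to 0.12 in wild-type sedentary arrays.

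**Figure D3:**
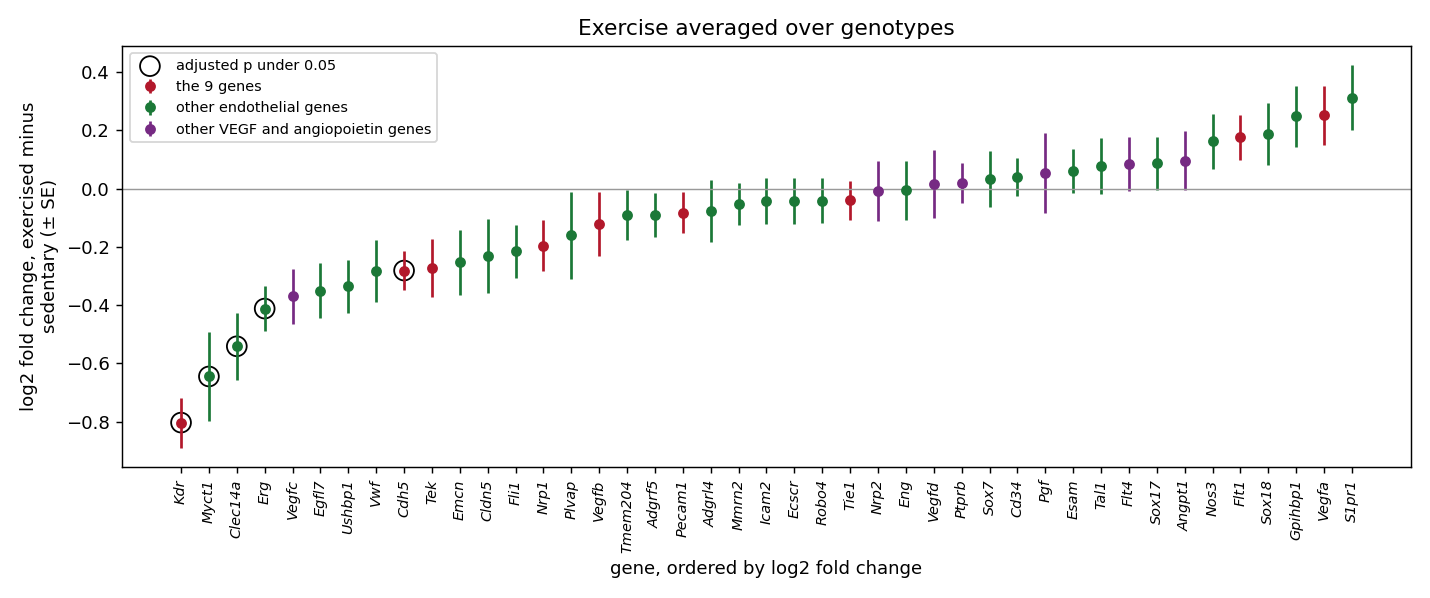
Log2 fold change of exercised minus sedentary muscle, averaged over genotypes (vertical axis, ± SE), for the 9 genes, 27 other endothelial genes and 7 other VEGF and angiopoietin genes, ordered by value. Kdr is at the low end at -0.80, followed by Myct1, Clec14a and Erg, and circles mark an adjusted p under 0.05.

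Relative to the mean of these 27 genes, Kdr was at -0.54, -0.39 and -0.61 in knockout exercised arrays, against 0.18, 0.08 and 0.34 in knockout sedentary arrays. In wild type it was at -0.24, -0.02 and -0.31 in exercised arrays, against 0.50, 0.52 and 0.50 in sedentary arrays. The gap between conditions was thus of similar size to that of Kdr itself. With the mean of the 27 genes as a covariate in the fit, Kdr was still called in wild type (-0.65, limma adjusted p = 0.0187) and in the average (-0.64, limma adjusted p = 0.0106). It was no longer called in the knockout (-0.62, limma adjusted p = 0.197), and Cdh5 was no longer called in the average (-0.19, limma adjusted p = 0.611).

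**Figure D4:**
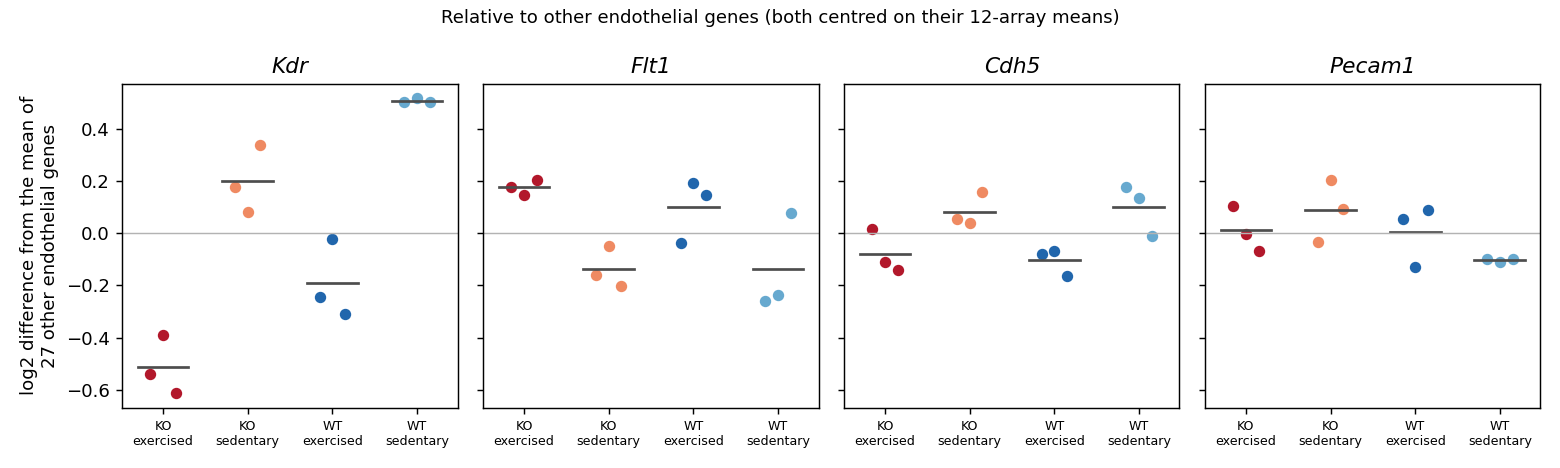
Levels of Kdr, Flt1, Cdh5 and Pecam1 relative to the mean of 27 other endothelial genes on each array (log2 difference, both centred on their 12-array means), with group means as lines. Kdr lies between -0.61 and -0.02 on exercised arrays and between 0.08 and 0.52 on sedentary arrays.

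Of the other VEGF and angiopoietin ligands and receptors, 0 of 7 tested passed by limma in any comparison. At an unadjusted p under 0.05 there was 1 in the averaged exercise effect, the lymphatic growth factor gene Vegfc (-0.37, SE 0.09, limma adjusted p = 0.0674). Vegfc was at -0.44 in the knockout and -0.30 in wild type. Its receptor gene Flt4 was at 0.29 in wild type and differed between genotypes by -0.41 in its exercise value (SE 0.19), and the Flt4 ligand gene Vegfd was at 0.16 in the knockout, with a difference of 0.30; none passed. The angiopoietin gene Angpt1, an activator of Tek, was 0.30 higher in knockout exercised and 0.23 higher in knockout sedentary than in wild-type muscle, with an exercise average of 0.10. These values of Angpt1 turned negative when all its rows were averaged. Its genotype average was 0.27, beside -0.31 for Pgf, another Flt1 ligand. The co-receptor gene Nrp2 was 0.23 higher in knockout than in wild-type sedentary muscle. Angpt2 and Angpt4 were too dim to be tested.

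Among 26 genes of VEGF receptor signalling, Spry2, a feedback inhibitor of receptor tyrosine kinases, fell averaged over genotypes (-0.36, SE 0.08, limma adjusted p = 0.0275) and was the 1 gene called there. It passed in 3 of the 12 fits with 1 array left out, and its values were -0.30 in the knockout and -0.42 in wild type. The small heat shock protein gene Hspb1 was at 0.33 in the average and 0.33 in wild type, and the adaptor gene Sh2d2a at -0.40 in the knockout, without passing. For the difference of effects the smallest p-values were those of Sh2d2a (-0.55) and the kinase gene Map2k2 (-0.39), which were also at -0.31 and -0.26 for knockout against wild type in exercised muscle. Of 16 regulators of Vegfa, Ppargc1a, the coactivator of mitochondrial biogenesis that can induce Vegfa in muscle, was the 1 called. It rose by 1.70 in the knockout (SE 0.20, limma adjusted p = 0.00100) and 1.31 in wild type (SE 0.20, limma adjusted p = 0.00429). Without knockout sedentary replicate 3 the knockout value was 1.75, and without wild-type exercised replicate 1 the wild-type value was 1.48, and both passed. The oxygen-sensing genes did not pass: Egln1 was at 0.15 in the knockout and Vhl at -0.30 in wild type. The difference of effects was 0.27 for Egln1 and -0.33 for Hif3a. Ppargc1b, a relative of Ppargc1a, was at -0.28 in the average.

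For knockout against wild type, none of these further genes passed. The values given are those of the genes of smallest p within each of the 4 lists, up to 2 a list, beside those given above. In sedentary muscle they were 0.47 for Gpihbp1, which holds lipoprotein lipase on capillaries, -0.35 for Nos3, the endothelial nitric oxide synthase, 0.19 for the adaptor gene Pxn, -0.21 for Egln1 and -0.40 for Ppargc1b. In exercised muscle they were -0.50 for Plvap and -0.26 for Ecscr, both endothelial membrane proteins, 0.33 for Vegfd, 0.31 for Vhl and 0.41 for Ppargc1a. For the difference of exercise effects, Plvap was at -0.60 and Ecscr at -0.47. The genotype averages so chosen were 0.30 for Gpihbp1, -0.25 for Nos3, -0.26 for the adaptor gene Nck2, -0.35 for Ppargc1b and 0.20 for Vhl.

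Markers of other cell types are given beside the exercise values, as mean log2 levels relative to the 12-array mean and as counts. Of 11 pericyte and smooth muscle markers, 11 had negative exercise values in the knockout and 5 in wild type, and 4 and 2 had an unadjusted p under 0.05. Their mean level ran from -0.21 to -0.08 in knockout exercised against 0.06 to 0.19 in knockout sedentary arrays. In wild type it ran from -0.13 to 0.27 in exercised against -0.12 to 0.09 in sedentary arrays. The 0.27 came from wild-type exercised replicate 1, and the other exercised arrays were at -0.13 and -0.09. Without that array 8 of 11 were negative in wild type, and without knockout sedentary replicate 3 10 of 11 in the knockout. The 1 called was Notch3, a receptor of mural cells (-0.46 averaged over genotypes, SE 0.11, limma adjusted p = 0.0475), which passed in 2 of the 12 fits with 1 array left out, neither of them without one of these arrays.

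Fibroblast and matrix markers had the largest list median beside the fall of Kdr in the knockout. There 7 of 8 had negative exercise values, with a median of -0.63 and 5 at an unadjusted p under 0.05, and 0 were called by limma. Without knockout sedentary replicate 3 the counts were 6 of 8 and 4, with a median of -0.30. In wild type 1 of 8 was negative, with a median of 0.13. Their mean level ran from -0.32 to -0.19 in knockout exercised against -0.22 to 1.14 in knockout sedentary arrays, the 1.14 being replicate 3. The wild-type range was -0.12 to 0.13 in exercised against -0.19 to -0.09 in sedentary arrays.

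Macrophage and leukocyte markers, of cells that can carry Pecam1, Flt1 and Nrp1, ran from -0.11 to -0.03 in knockout exercised against -0.18 to 0.32 in knockout sedentary arrays. In wild type they ran from -0.02 to 0.07 in exercised against -0.18 to 0.11 in sedentary arrays. Of these 11 markers, 10 were negative in the knockout (8 without knockout sedentary replicate 3) and 2 in wild type (4 without wild-type exercised replicate 1), with 0 called by limma and 1 and 0 at an unadjusted p under 0.05. The 5 lymphatic endothelial markers tested ran from -0.17 to 0.17 in knockout exercised against -0.02 to 0.46 in knockout sedentary arrays, the 0.46 being replicate 3. In wild type they ran from -0.09 to 0.01 in exercised against -0.13 to -0.11 in sedentary arrays. Negative values were held by 4 of 5 in the knockout, 2 of 5 without that replicate, and by 3 of 5 in wild type. Of 4 Schwann cell markers, 1 was negative in the knockout and 1 in wild type, and of 5 adipocyte markers 5 in the knockout and 0 in wild type. Without knockout sedentary replicate 3 the knockout counts were 0 of 4 and 3 of 5. The wild-type counts stayed the same without wild-type exercised replicate 1. By limma 0 of these 9 were called in either genotype, and at an unadjusted p under 0.05 there was 1, an adipocyte marker in wild type. Without wild-type exercised replicate 1 there was 0 in wild type.

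The same markers stood beside the genotype values of Vegfa, Nrp1, Kdr and Tie1. In exercised muscle 6 of 8 fibroblast and matrix markers were lower in the knockout (median -0.33, 3 at an unadjusted p under 0.05), where 50.7% of all genes were lower. Without wild-type exercised replicate 1 it was 5 of 8 (median -0.26, 2 at an unadjusted p under 0.05). Pericyte markers were lower for 9 of 11 (6 of 11 without wild-type exercised replicate 1) and macrophage markers for 7 of 11 (8 of 11 without it). Lower values were held by 1 of 5 lymphatic, 1 of 4 Schwann cell and 4 of 5 adipocyte markers (2, 0 and 4 without it). In sedentary muscle 0 of 8 fibroblast and matrix markers were lower in the knockout and 8 higher (median 0.38, 4 at an unadjusted p under 0.05), where 54.0% of all genes were lower. Without knockout sedentary replicate 3, 5 of 8 were higher (median 0.14, 1 at an unadjusted p under 0.05). Macrophage markers were higher for 10 of 11 (7 of 11 without that replicate) and pericyte markers for 7 of 11 (8 of 11 without it). Higher values were held by 4 of 4 Schwann cell and 4 of 5 adipocyte markers (3 and 4 without it). Lymphatic markers were higher for 3 of 5 (3 of 5 without it), with a median of 0.33 (0.08 without it). No marker of these lists was called by limma between genotypes in either condition. Without that replicate the genotype value in sedentary muscle was -0.56 for Vegfa and -0.39 for Nrp1. Kdr in the knockout also lay further below wild type without it, and 0 of the 9 genes were called. The part of these cells in the results was not tested.

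The genes most like a member were ranked by Pearson's r over the 12 arrays, as a description: arrays of one group share their condition, which enters r. For Kdr they were the lysophosphatidic acid receptor gene Lpar4 (r = 0.94), the semaphorin gene Sema6a (0.93), the chemokine gene Cxcl12 (0.93), the homeobox gene Hoxc6 (0.92) and the zinc-finger gene Patz1 (0.92). After group means were removed r was 0.51, 0.78, 0.60, 0.54 and 0.64 in the same order. For Flt1 they were Lrrc58 (0.91), the retromer gene Vps26a (0.90), Ly6c1, a surface protein of endothelium and monocytes (0.88), Zxdc (0.88) and Klf9 (0.88), with 0.79 or more after removal. For Vegfa they were Eif4e3 (0.96), Ppip5k1 (0.92), Ubn1 (0.92), the mitochondrial chaperone gene Hspa9 (0.92) and Plbd1 (0.91). For Pecam1 they were Scube3 (0.85), Rbpms (0.84), Negr1 (0.84), Bmp4 (0.83) and Otop1 (0.82). Among the members, Kdr went with Cdh5 (0.88, and 0.69 after removal) and Nrp1 (0.75 and 0.77), and against Flt1 (-0.57, but 0.22 after removal). Vegfa went with Flt1 (0.62 and 0.77).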

How the data were processed

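The deposited table holds log2 expression values of 41345 transcript clusters on 12 arrays. The log base was read from the range of the values. Per the labels' protocols, biotin-labelled whole-transcript target was made from total RNA, and per the submitters' processing notes Partek was used, with no version. Background correction, normalisation, summarisation and genome build are not given in the sources used here. Array medians lay between 4.52 and 4.60.

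Of these clusters, 23521 had exactly 1 gene symbol in the platform annotation, 1814 several and 16010 none. The cluster of highest mean was kept per gene. The 13747 genes above the table median (4.56) in at least 3 arrays were tested. R 4.3.3 and limma 3.58.1 fitted 1 mean per group to all 12 arrays (lmFit, eBayes with an intensity trend). The contrasts were drawn from that fit, with Benjamini-Hochberg adjustment over all genes within a contrast and calls at an adjusted p under 0.05, two-sided. The fit was also run on simulated data with independent normal noise per gene and no shift of whole arrays. That run, whose outcome is not given here, does not bear on the arrays that stood apart. Intervals are at 95%, and 3 arrays per group limit the precision.

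Members and lists were chosen with earlier results of these data known. The rule for named genes took all 9 members, and per contrast from each further list the called genes (up to 5) or, with fewer than 2, the 2 of smallest p. It also took called markers of other cell types and the 5 genes most correlated with Kdr, Flt1, Vegfa and Pecam1. Some genes of the further lists were not analysed here. Groups follow the sample titles. Replicates are numbered in order and pair nothing. Alternatives changed the filter, the normalisation, the moderation, the arrays in the fit, the row per gene and a covariate, or left out 1 array. Counts over the marker lists without each of 2 arrays were added after the data were seen.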

Additional observations from a re-analysis of the deposited data

How the results depend on the processing

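Kdr kept its sign and its call for exercise averaged over genotypes in all 22 alternatives (-0.86 to -0.64), in 21 of 23 in the knockout (-0.96 to -0.62) and in 22 of 23 in wild type (-0.85 to -0.65). The count of members called was 0 without moderation in either genotype, and 0 in the knockout with the other endothelial genes as a covariate. In the average it was 1 with no low-value filter, median centring, no intensity trend, robust eBayes, no moderation or the covariate, since Cdh5 was called in 5 of 22 alternatives. It was 1 to 3 with 1 array left out, the 3 being Kdr, Cdh5 and Tek without wild-type sedentary replicate 3. Erg lost its call with the covariate (-0.35). For the genotype average the count was 0 to 2, the 2 being Vegfa and Nrp1 without wild-type exercised replicate 1.

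Signs that turned belonged to values that had not passed; the cause was not tested. With the covariate, Vegfb was at 0.22 for exercise in the knockout, 0.062 in wild type, 0.14 in the average, 0.16 for the difference of effects and 0.013 for knockout against wild type in exercised muscle. Nrp1 was then at 0.023 for exercise in the knockout and 0.081 for the difference, Kdr at 0.032 and Cdh5 at 0.043 for the difference, and Cdh5 at 0.025 for genotype in exercised muscle and 0.0034 in the genotype average. With quantile normalization Flt1 was at -0.016 for the difference and Cdh5 at 0.0063 for genotype in sedentary muscle. With the mean of all rows Angpt1 was at -0.075 for genotype in exercised and -0.040 in sedentary muscle, -0.058 in the genotype average and -0.032 for averaged exercise. With 1 array left out, exercise in wild type ran from -0.033 to 0.23 for Vegfa, -0.26 to 0.074 for Vegfb, -0.012 to 0.097 for Tie1 and -0.020 to 0.11 for Pecam1. The difference of effects ran from -0.21 to 0.13 for Vegfb, -0.20 to 0.0035 for Kdr, -0.087 to 0.080 for Flt1, -0.15 to 0.057 for Nrp1 and -0.099 to 0.047 for Cdh5. Genotype in exercised muscle ran from -0.31 to 0.026 for Vegfb, -0.067 to 0.071 for Flt1, -0.061 to 0.020 for Cdh5 and -0.11 to 0.018 for Pecam1. For Vegfb, this -0.31 and the 0.074 for exercise in wild type were the values without wild-type exercised replicate 1. Genotype in sedentary muscle ran from -0.22 to 0.0068 for Vegfb, -0.056 to 0.11 for Flt1, -0.15 to 0.14 for Tek and -0.073 to 0.073 for Cdh5. The genotype average ran from -0.025 to 0.068 for Flt1 and -0.049 to 0.024 for Cdh5.

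Over all genes, calls without moderation were 0 in place of 38 for exercise in the knockout (1124 at an unadjusted p under 0.05), 12 in place of 78 in wild type and 67 in place of 220 in the average; with the covariate they were 13 in the knockout and 74 in the average. Calls for exercise in the knockout were 24 with no intensity trend and 25 with only the compared groups. The genotype calls without moderation were 1 in place of 24 in exercised muscle, 1 in place of 19 in sedentary muscle and 23 in place of 75 in the average, which was 42 with no intensity trend. With only the compared groups, 13 were called in exercised muscle. With 1 array left out, the calls ran from 16 to 71 for exercise in the knockout, 46 to 90 in wild type, 144 to 220 in the average, 5 to 40 for genotype in exercised and 6 to 27 in sedentary muscle, and 38 to 149 in the genotype average, with the highest knockout exercise and genotype counts without wild-type exercised replicate 1. No paired analysis was possible because the labels number the samples from 1 to 12 and no number is shared between groups. The number of arrays limits every interval.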
